A study of Mus musculus with 12 samples.

Results

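The genes described here encode the ligands and receptors of the 4 classical axon guidance systems: semaphorins with plexins and neuropilins, ephrins with Eph receptors, netrins with Dcc and Unc5 receptors, and Slits with Robo receptors. They were taken by symbol: every gene of both count tables whose symbol names a member of the Sema3 to Sema7, Plxn, Nrp, Eph, Efn, Ntn, Dcc, Unc5, Slit or Robo families. That rule found 69 of 55228 genes and used no measured value, although it was chosen with earlier results of these data known. A filter on low counts left 18805 genes for testing, 68 of them members. Robo3, a Robo family gene best known from commissural neurons, did not pass. It had 2, 10, 4 and 19 counts in all over the 3 libraries of each group (bladder then urethra at E14.5, bladder then urethra at E18.5).

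Guidance ligands are secreted or membrane-bound proteins that attract or repel growing axons and migrating cells, and the answer depends on which receptors the cell carries. Class 3 semaphorins are secreted and mostly signal through a neuropilin that binds the ligand and a plexin that carries the signal, whereas most other vertebrate semaphorins are anchored to the membrane and bind plexins directly. Ephrins and Eph receptors both sit on cell surfaces, signal in both directions at contacts and help to keep cell populations apart. Netrins attract through Dcc and repel through Unc5 receptors, and Slits repel through Robo receptors. Bladder and urethra receive autonomic and sensory axons during fetal life, and all 4 systems also act in vessels, epithelia and connective tissue, so a guidance gene need not be read in a neuron.

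The series compared mesenchyme, the connective tissue and muscle layer, of the bladder with that of the pelvic urethra in wild-type, untreated female CD-1 mouse embryos at 2 embryonic stages, E14.5 and E18.5, counted in days with the day of the vaginal plug as E0.5. The 4 groups were bladder and urethral mesenchyme at each stage, with 3 libraries each. Every library was made from the pooled tissue of the females of 1 litter, so each value is a mean over an unstated number of embryos. Epithelium was peeled off after trypsin treatment, and poly(A) RNA was sequenced in read pairs of 100 bp.

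Library totals ranged from 21495169 to 36349777 counts. Levels below are CPM, the count scaled by the TMM-adjusted library total. Differences are on the log2 scale ± SE, with bladder minus urethra or E18.5 minus E14.5, and a gene was called where edgeR's quasi-likelihood test gave a Benjamini-Hochberg adjusted p under 0.05 over all genes tested. The labelled mesenchyme carried its markers: 10 mesenchymal genes summed to between 8119.7 and 33218 CPM in every library. Markers of other cells were also present and differed between groups. The sum of 12 neuronal markers was 109.6 to 486 CPM in E14.5 bladder, 754 to 1208 in E14.5 urethra, 83.6 to 190.3 in E18.5 bladder and 778 to 2133 in E18.5 urethra. The sum of 14 epithelial markers was 284 to 1501, 678 to 1497, 8498 to 11379 and 2758 to 4089 CPM in the same order. The sum of 9 smooth muscle markers was 6417 to 8533, 1679.8 to 3639, 23448 to 43451 and 2602 to 2901 CPM. No marker of these lists was at 0 in all libraries. In tissue libraries such as these, fewer cells of a type and less RNA per cell cannot be told apart. Within each E14.5 group, replicate 1 was the library closest to E18.5 on the first principal component of all genes.

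More guidance genes were lower than higher in bladder mesenchyme relative to urethral mesenchyme at both stages. At E14.5, 25 of 68 tested members were called lower in bladder and 6 higher, against 12.5% and 12.4% of all genes tested. At E18.5, 32 were called lower and 13 higher, against 16.2% and 18.52% of all genes. Members thus made 36.8% and 47.1% lower calls, and 8.82% and 19.1% higher calls, at the respective stages. Their median log2 difference was -0.43 at E14.5 and -0.57 at E18.5, where the median over all genes was -0.00 and 0.05. All 3 bladder libraries lay below all 3 urethral libraries for 27 members at E14.5 and 36 at E18.5, and above them for 6 and 12. Such separation of the groups, in either direction, was found for 48.5% and 70.6% of tested members and for 37.7% and 52.1% of all genes tested. Of the members, 16 were at least 2-fold lower and 3 at least 2-fold higher in bladder at E14.5, against 7.28% and 4.73% of all genes, and 24 and 6 at E18.5, against 11% and 8.6%. Together the members took 0.470% to 0.568% of counts in E14.5 bladder and 0.636% to 0.768% in E14.5 urethra. At E18.5 they took 0.387% to 0.481% in bladder and 0.543% to 0.624% in urethra, so the bladder shares lay below the urethral shares at each stage.

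**Figure D1:**
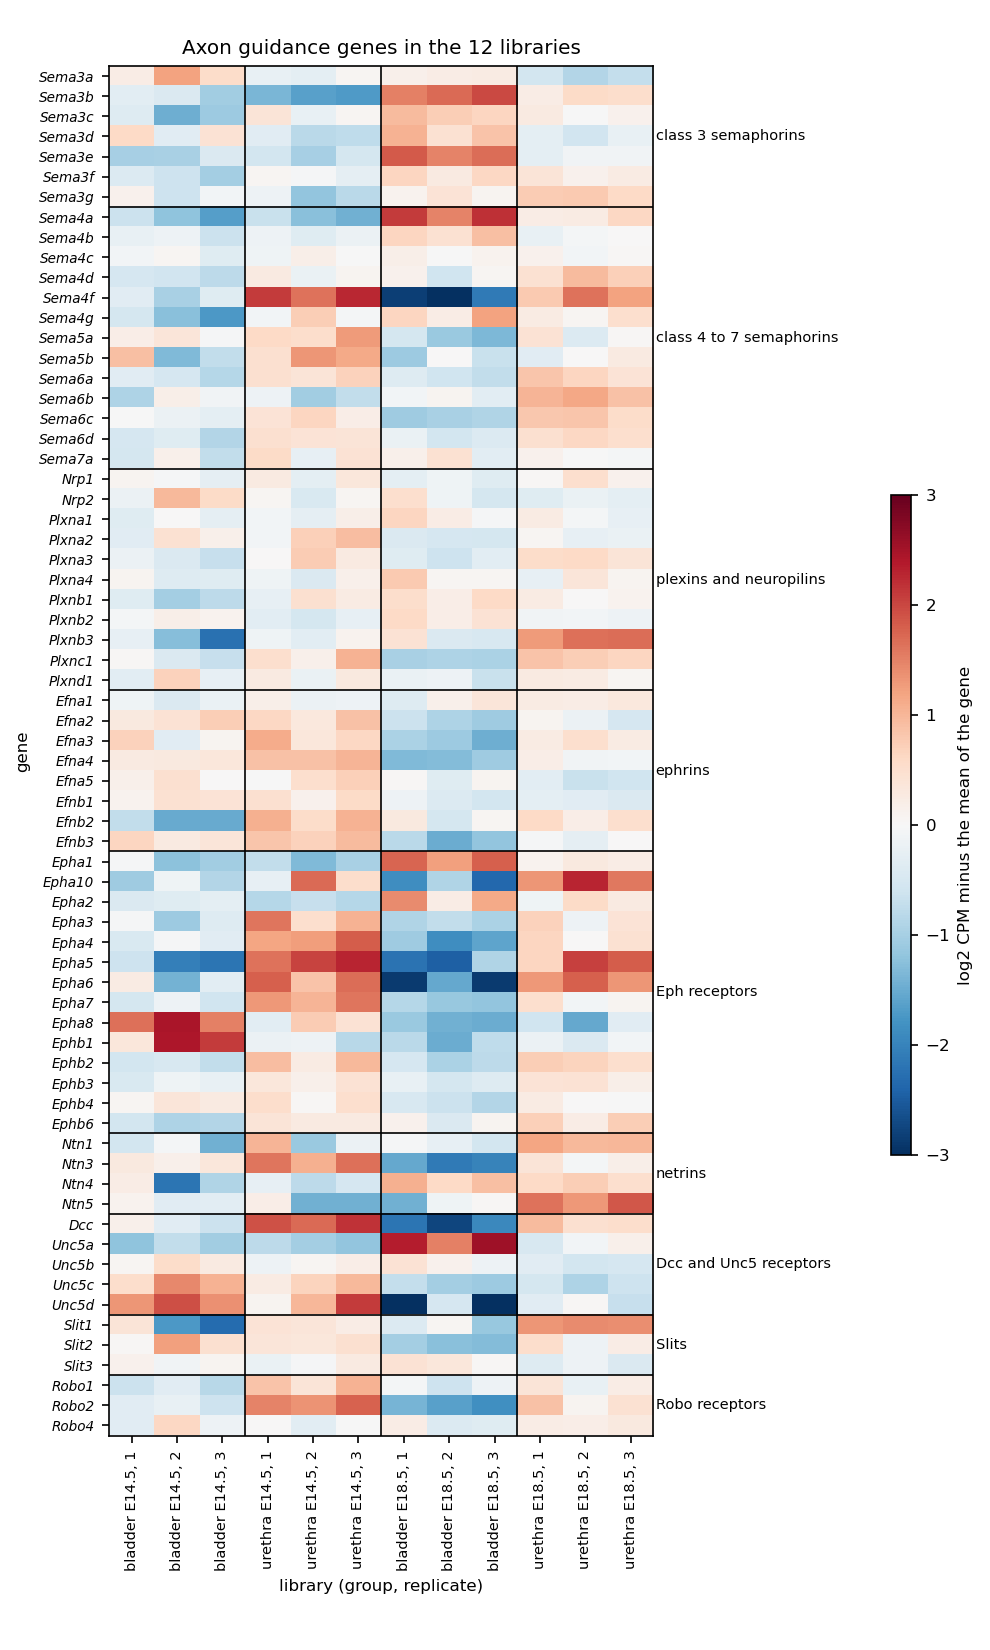
Level of the 68 tested guidance genes (rows, ordered by role) in the 12 libraries (columns, by group), as log2 CPM minus the gene's mean over all libraries; the colour scale stops at 3 on either side. Most rows are higher in the urethral columns, and the class 3 semaphorin rows are mostly higher in the bladder columns.

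Between stages the calls were more balanced. In bladder, 16 members rose and 20 fell from E14.5 to E18.5, against 23.7% of all genes that rose and 22% that fell. The members' shares for calls of any fold in bladder, 23.5% and 29.4%, were near that background. In urethra, 10 members (14.7%) rose and 16 (23.5%) fell, against 13.6% and 10.8% of all genes. The urethral counts fell to 6 rising without replicate 3 of E18.5 and to 10 falling without replicate 3 of E14.5. With a fold of at least 2, 13 (19.1%) rose and 16 (23.5%) fell in bladder, against 14.7% and 8.08% of all genes. In urethra 8 (11.8%) rose and 7 (10.3%) fell by that much, against 9.65% and 1.91%. The share of members that fell at least 2-fold was thus above that of all genes in both compartments. Of the members, 5 (7.35%) rose in both compartments and 12 (17.6%) fell in both, against 9.2% and 8.22% of all genes tested. No member was called in opposite directions, as 0.447% of all genes were. The compartment difference itself changed with stage for 14 members: it moved towards bladder for 9 and towards urethra for 5, against 4.64% and 4.03% of all genes. A change of at least 2-fold was called for 7 and 5, against 2.98% and 3.06%. Those counts were the least stable: leaving out 1 library gave 4 to 10 and 3 to 7, with 4 towards bladder without replicate 3 of E14.5 bladder or replicate 2 of E18.5 urethra, 5 without replicate 3 of E18.5 bladder or replicate 1 of E18.5 urethra, and 3 towards urethra without replicate 3 of E18.5 urethra. DESeq2 gave 10 in each direction, and the replicate block 10 and 8. Over the 5 comparisons 60 of the 68 tested members (88.2%) were called at least once, against 65.6% of all genes tested. The 8 that were not were Efna1, Nrp2, Plxna4, Plxnd1, Robo4, Sema4c, Sema5b and Sema7a.

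**Figure D2:**
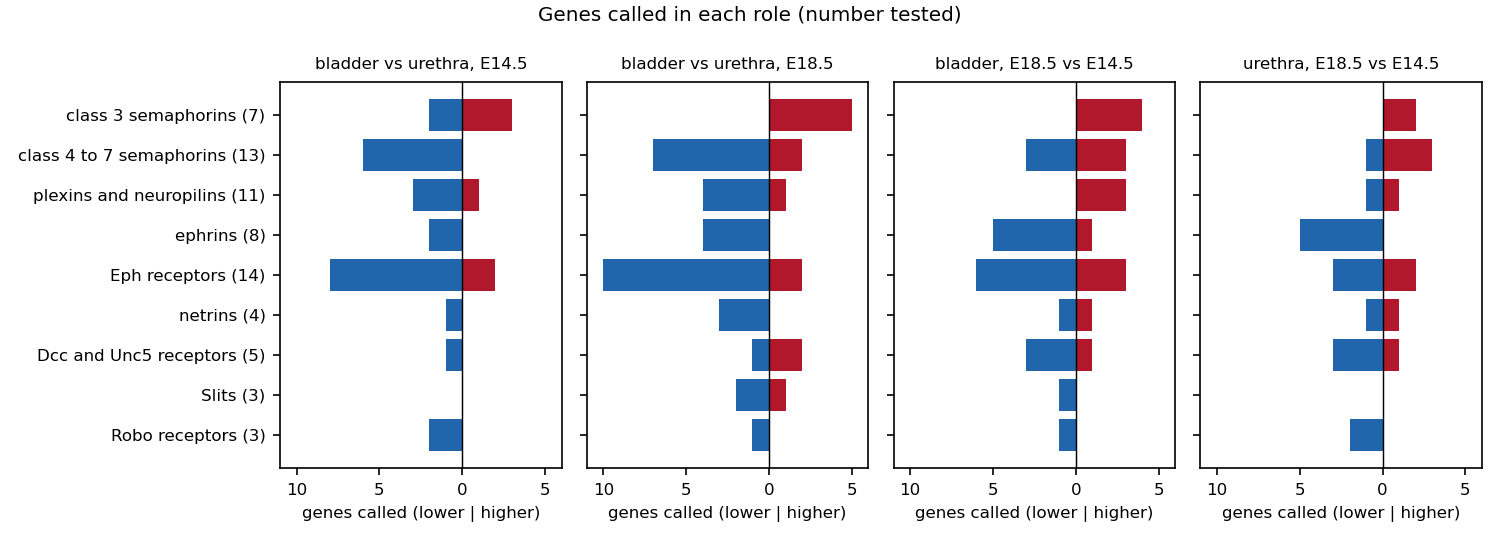
Number of tested guidance genes called higher (bars to the right of 0) and lower (bars to the left) in each role, for the 2 compartment comparisons and the 2 stage comparisons, by edgeR's quasi-likelihood test at an adjusted p under 0.05. Eph receptors, the largest role with 14 genes, give the most lower calls in both compartment comparisons, 8 at E14.5 and 10 at E18.5. The 7 class 3 semaphorins give 5 higher and 0 lower calls at E18.5. In the compartment comparisons 12.5% of all genes tested were called lower at E14.5 and 16.2% at E18.5, and 12.4% and 18.52% higher.

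The stretches just upstream of 4 genes are shown because these genes carry the changes with stage described below: Ephb1 and Epha8 fell together in bladder, and Unc5a and Sema3e rose there. Each is the 250 bases before the RefSeq transcription start in GRCm38.p6, 5′ to 3′ on the gene's strand. Capitals mark matches, on either strand, to the GC box GGGCGG, the CCAAT box CCAAT or the E-box CACGTG, and overlapping matches run together.
Ephb1, chr9:102354694-102354943, minus strand: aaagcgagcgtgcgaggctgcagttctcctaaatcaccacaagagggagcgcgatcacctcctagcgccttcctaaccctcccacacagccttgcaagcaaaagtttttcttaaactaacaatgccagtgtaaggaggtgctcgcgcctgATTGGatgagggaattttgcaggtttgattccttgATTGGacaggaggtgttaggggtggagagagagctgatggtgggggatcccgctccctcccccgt
Epha8, chr4:136956817-136957066, minus strand: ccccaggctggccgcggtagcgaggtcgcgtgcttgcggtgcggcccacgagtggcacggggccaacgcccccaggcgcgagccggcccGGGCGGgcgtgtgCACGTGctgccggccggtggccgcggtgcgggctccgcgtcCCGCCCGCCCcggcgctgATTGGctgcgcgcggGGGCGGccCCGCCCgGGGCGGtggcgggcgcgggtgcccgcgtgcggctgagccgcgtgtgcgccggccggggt
Unc5a, chr13:54949161-54949410, plus strand: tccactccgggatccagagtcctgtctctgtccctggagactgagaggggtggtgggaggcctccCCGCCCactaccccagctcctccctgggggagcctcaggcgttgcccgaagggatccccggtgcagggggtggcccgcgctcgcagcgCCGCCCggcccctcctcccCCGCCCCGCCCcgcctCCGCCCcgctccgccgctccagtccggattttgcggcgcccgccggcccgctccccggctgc
Sema3e, chr5:14025026-14025275, plus strand: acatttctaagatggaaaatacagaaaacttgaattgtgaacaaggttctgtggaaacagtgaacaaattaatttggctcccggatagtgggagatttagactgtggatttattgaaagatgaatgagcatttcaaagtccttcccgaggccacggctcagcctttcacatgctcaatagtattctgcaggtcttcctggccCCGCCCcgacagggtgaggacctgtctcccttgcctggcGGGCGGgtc
The pair that fell did not share a promoter composition. Ephb1 had 54.0% G or C, no GC box and 2 CCAAT boxes, whereas Epha8 had 84.0% G or C, 6 GC boxes, 1 E-box and 1 CCAAT box. Unc5a had 76.8% G or C and 5 GC boxes, and Sema3e 48.0% and 2 GC boxes. Of 32851 mouse promoter windows of this length, 32.7% held a GC box, 33.8% a CCAAT box and 6.02% the E-box. The members' windows, 75 starts of 59 matched genes, held a GC box at 70.7%, a CCAAT box at 26.7% and the E-box at 5.33%. A TATA box, TATAAA, was found at 2.67% of the members' starts and 12.4% of all starts. A Gli site, TGGGTGGTC, matched none of the members' windows and 0.225% of all. A match is a run of letters and says nothing of binding.

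The class 3 semaphorins, secreted ligands, were the only role with more higher than lower calls in bladder at both stages. At E14.5, Sema3a, Sema3b and Sema3d were called higher in bladder and Sema3c and Sema3f lower. At E18.5, Sema3a, Sema3b, Sema3c, Sema3d and Sema3e were called higher and none lower. Beside them, 12.4% of all genes tested were higher and 12.5% lower at E14.5, and 18.52% higher and 16.2% lower at E18.5. Of the 7 genes, 4 rose with stage in bladder and 2 in urethra, and none fell. In bladder 23.7% of all genes tested rose and 22% fell, and in urethra 13.6% rose and 10.8% fell. Per kb of exon Sema3c, which is needed for neural crest migration into the heart outflow tract, was the highest member of the role over the 12 libraries. Its level was 16.5 CPM per kb in E14.5 bladder, 33.1 in E14.5 urethra, 53.2 in E18.5 bladder and 33.9 in E18.5 urethra.

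Sema3c (chromosome 5, 17574281 to 17730268 in GRCm38) was at 169.9, 80.4 and 104 CPM in E14.5 bladder and at 289.6, 189 and 232 CPM in E14.5 urethra. At E18.5 it was at 425, 369 and 346 CPM in bladder and 265, 219.5 and 242 CPM in urethra. The order of the compartments thus turned over: every bladder library lay below every urethral library at E14.5 and above at E18.5. The difference was -1.0 ± 0.24 at E14.5 (adjusted p = 0.0101) and 0.65 ± 0.24 at E18.5 (adjusted p = 0.0493). Its change was 1.65 ± 0.33 (adjusted p = 0.0109). The E18.5 call alone was borderline: it ended without any 1 of the 6 E18.5 libraries (adjusted p 0.0684 to 0.144) and with other size factors (0.0667). It also ended with no low-count filter (0.0903) and with a stricter one (0.0663). Levels in bladder rose with stage by 1.69, while the urethral means, 237 ± 50.7 and 242 ± 22.9 CPM (SD, n = 3), gave no call.

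Sema3e (chromosome 5, 14025276 to 14256689), the class 3 ligand that binds Plxnd1 without a neuropilin, was low at E14.5 in both compartments and rose in bladder. Its E14.5 libraries were at 4.66, 4.77 and 6.88 CPM in bladder and 6.39, 4.66 and 6.42 CPM in urethra. At E18.5 they were at 33.7, 26.4 and 29.9 CPM in bladder and 7.59, 8.77 and 8.65 CPM in urethra. The E18.5 bladder libraries were the highest, and the E18.5 urethral ones lay just above all E14.5 libraries. The gene rose by 2.46 ± 0.21 in bladder (adjusted p = 8.65e-06), and the E18.5 compartment difference was 1.85 ± 0.20 (adjusted p = 3.31e-05). The change of the compartment difference was 1.95 ± 0.29 (adjusted p = 0.00273) and kept its call in every alternative run. Its receptor gene Plxnd1 was called in no comparison, with group means of 130 to 185 CPM.

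Sema3b (chromosome 9, 107597674 to 107609229) was higher in bladder at both stages and rose in both compartments. At E14.5 it was at 17.5, 16.3 and 10.6 CPM in bladder and 8.36, 6.99 and 6.68 CPM in urethra. Its E18.5 levels were 62.1, 71 and 86.2 CPM in bladder and 25.3, 32.7 and 31.3 CPM in urethra. No groups overlapped in these 4 comparisons. It rose by 2.30 ± 0.20 in bladder (adjusted p = 8.97e-06) and 2.02 ± 0.20 in urethra (adjusted p = 0.00015), and its compartment difference was 1.01 ± 0.20 at E14.5 (adjusted p = 0.00363) and 1.30 ± 0.19 at E18.5 (adjusted p = 0.000263).

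Sema3d (chromosome 5, 12383385 to 12588948) was at 133, 69.2 and 118 CPM in E14.5 bladder and 69.8, 50.2 and 52 CPM in E14.5 urethra, so that replicate 2 of bladder lay within the urethral range. At E18.5 it was at 180.2, 122 and 158 CPM in bladder and 71.3, 58.9 and 75.4 CPM in urethra, with no overlap. The difference was 0.90 ± 0.23 (adjusted p = 0.0152) and 1.16 ± 0.23 (adjusted p = 0.00194). The E14.5 call ended without bladder replicate 3 (adjusted p = 0.0569), urethral replicate 2 (0.0554) or urethral replicate 3 (0.0594). Sema3a, which repels sensory and sympathetic axons through Nrp1, was higher in bladder by 0.87 ± 0.20 at E14.5 and 0.92 ± 0.20 at E18.5. Sema3f, a ligand of Nrp2, differed by -0.58 ± 0.16 at E14.5, a call lost when bladder replicate 3 or urethral replicate 1 was left out (adjusted p 0.0843 and 0.0577), and rose with stage in bladder by 1.20. Sema3g rose in urethra by 1.39 ± 0.25 (adjusted p = 0.00262).

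Of the 13 semaphorins of classes 4 to 7, most of them membrane-bound, 6 were lower in bladder at E14.5 and none higher, and 7 were lower at E18.5 and 2 higher. The shares of all genes tested were 12.5% lower and 12.4% higher at E14.5, and 16.2% lower and 18.52% higher at E18.5. Per kb Sema4c was the highest over the 12 libraries, at 14.9, 16.4, 17.3 and 16.5 CPM per kb in the 4 groups. It was called in no comparison, at 70.4, 77.1 and 57.7 CPM in E14.5 bladder, 68.5, 84.4 and 73.6 in E14.5 urethra, 84.7, 74 and 79.8 in E18.5 bladder and 81.5, 70.4 and 76 in E18.5 urethra.

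Sema4f (chromosome 6, 82911885 to 82939769) gave the largest lower calls of this role. It was at 7.27, 4.64 and 7.09 CPM in E14.5 bladder and 39.7, 28.7 and 44.6 CPM in E14.5 urethra. The E18.5 libraries were at 1.23, 1.07 and 2.05 CPM in bladder and 16, 28.6 and 21.3 CPM in urethra. Every bladder library lay below every urethral library at both stages. The difference was -2.57 ± 0.29 at E14.5 (adjusted p = 0.000151) and -3.89 ± 0.32 at E18.5 (adjusted p = 5.15e-06). It fell with stage in bladder by 2.10 ± 0.31 on the log2 scale (adjusted p = 0.000208). Also lower in bladder at both stages were Sema4d, the ligand of Plxnb1, with Sema6a, Sema6c and Sema6d. Sema6c, at 22.2 ± 1.21 CPM in E18.5 bladder and 73 ± 7.14 CPM in E18.5 urethra (SD, n = 3), differed by -1.72 ± 0.14 at E18.5 and by -0.58 ± 0.13 at E14.5. The E14.5 call of Sema4d (-0.68 ± 0.21) ended without bladder replicate 2 or 3 or urethral replicate 1 or 3, and with the replicate block (adjusted p = 0.0661). It also ended with limma-voom (0.0572) and without both E14.5 libraries numbered 1 (0.0901).

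Sema4a (chromosome 3, 88435959 to 88461182), also expressed by immune cells and epithelia, went the other way. It was at 16.2, 10.9 and 7.96 CPM in E14.5 bladder and 16, 10.6 and 9.25 CPM in E14.5 urethra, and at 108, 71.2 and 115 CPM in E18.5 bladder and 29.5, 30.1 and 39.1 CPM in E18.5 urethra. The E14.5 compartments overlapped, and each E18.5 group lay above both. It rose by 3.07 ± 0.30 in bladder (adjusted p = 1.68e-05) and 1.47 ± 0.28 in urethra (adjusted p = 0.00368), and the E18.5 difference was 1.58 ± 0.28 (adjusted p = 0.00088). Per kb it led the role in E18.5 bladder, at 18.2 CPM per kb. Its change of the compartment difference, 1.60 ± 0.39 (adjusted p = 0.0264), ended without bladder E14.5 replicate 2 or 3, bladder E18.5 replicate 1 or 3, or urethral E18.5 replicate 1 or 2 (adjusted p 0.0561 to 0.067). The call of that change also ended with no low-count filter (0.0507). The epithelial marker sum moved with this gene across the groups and was highest in E18.5 bladder. Its part in the result was not tested.

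Sema4g (chromosome 19, 44989101 to 45003397) was at 39.5, 23.9 and 17.3 CPM in E14.5 bladder and 54.1, 95.8 and 54.6 CPM in E14.5 urethra, with no overlap. At E18.5 it was at 89.4, 66 and 132 CPM in bladder and 67.4, 59.3 and 80.6 CPM in urethra, and the compartments overlapped. It was lower in bladder at E14.5, with a difference of -1.34 ± 0.34 (adjusted p = 0.0161), a call that ended when bladder replicate 2 or 3 or urethral replicate 2 was left out (adjusted p 0.0578 to 0.0614). That call also ended with no low-count filter (0.0583). The change of Sema4g, 1.82 ± 0.48 (adjusted p = 0.0384), ended in the 9 fits that left out a library other than replicate 1 of either E14.5 group or replicate 2 of E18.5 bladder (adjusted p up to 0.096). With no low-count filter the change was not called either (0.123).

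Sema6b (chromosome 17, 56123085 to 56140343) was at 5.53, 12 and 9.9 CPM in E14.5 bladder, 9.49, 5.08 and 6.35 in E14.5 urethra, 10.1, 11.2 and 8.54 in E18.5 bladder and 21.6, 23.7 and 19.6 in E18.5 urethra. The E18.5 urethral libraries stood above all others. It rose in urethra by 1.64 ± 0.29 (adjusted p = 0.00218) and was lower in bladder at E18.5, with a difference of -1.13 ± 0.28 (adjusted p = 0.00781). Sema4b, at 72 ± 11 CPM in E18.5 bladder and 42.1 ± 3.54 in E18.5 urethra (SD, n = 3), was higher in bladder at E18.5 by 0.78 ± 0.15 (adjusted p = 0.0015). Sema5a fell in bladder by 1.14 on the log2 scale and was lower there at E18.5, with a difference of -1.02 ± 0.27 (adjusted p = 0.0101). The change of Sema6b, -1.52 ± 0.40 (adjusted p = 0.035), ended with the replicate block (0.0748) and in the 10 fits that left out a library other than replicate 1 of either E14.5 group (0.051 to 0.0827).

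Of 11 plexins and neuropilins, the semaphorin receptors, 3 were lower in bladder and 1 higher at E14.5, and 4 lower and 1 higher at E18.5. Among all genes tested, 12.5% were lower and 12.4% higher at E14.5, and 16.2% lower and 18.52% higher at E18.5. Plxnb2, a receptor of class 4 semaphorins, was the highest of them per kb over the 12 libraries, and Nrp2 had a like level in E14.5 bladder (58.6 against 56.7 CPM per kb). Plxnb2 (chromosome 15, 89155549 to 89180788) was at 398, 468 and 447 CPM in E14.5 bladder, 332, 287 and 349 in E14.5 urethra, 627, 476 and 556 in E18.5 bladder and 388, 394 and 371 in E18.5 urethra. The bladder libraries were above the urethral ones at each stage, by 0.44 ± 0.13 at E14.5 (adjusted p = 0.0253) and 0.53 ± 0.13 at E18.5 (adjusted p = 0.00625). The E14.5 call ended when bladder replicate 2 or 3 or urethral replicate 2 was left out (adjusted p 0.075 to 0.0891). It also ended in a fit of only the libraries compared (0.0563).

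Plxna3 and Plxnc1, the latter the receptor of Sema7a, were lower in bladder at both stages. Plxnc1 was at 9.61 ± 2.59 CPM in E14.5 bladder and 18.49 ± 5.92 in E14.5 urethra, and at 6.26 ± 0.11 and 20.4 ± 1.53 CPM at E18.5 (SD, n = 3). Its difference was -0.94 ± 0.24 and then -1.70 ± 0.24. The E14.5 call of Plxnc1 ended without replicate 3 of either compartment (adjusted p 0.0624 and 0.0665) and in a fit of only the libraries compared (0.0533). Plxnb1, the Sema4d receptor, was lower in bladder at E14.5, with a difference of -0.89 ± 0.20 and not called at E18.5. Its compartment difference changed by 1.21 ± 0.28 (adjusted p = 0.0195), a call that ended without bladder E14.5 replicate 3 or urethral E18.5 replicate 2 (0.0537 and 0.0528).

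Plxnb3 (chromosome X, 73757090 to 73772514) was low in all groups, at 1.6, 0.746 and 0.346 CPM in E14.5 bladder, 1.74, 1.52 and 2.06 in E14.5 urethra, 2.62, 1.39 and 1.34 in E18.5 bladder and 4.75, 6.19 and 6.28 in E18.5 urethra. The E18.5 urethral libraries lay above the rest. It rose in urethra by 1.70 ± 0.43 (adjusted p = 0.0143), a call that ended without urethral E18.5 replicate 3 (0.0501), and was lower in bladder at E18.5, with a difference of -1.68 ± 0.43 (adjusted p = 0.00929). Nrp1, the receptor of Sema3a, was lower in bladder at E18.5, with a difference of -0.50 ± 0.17 (adjusted p = 0.0414), and that call ended without any 1 of the bladder libraries or urethral replicate 2 or 3 (0.0566 to 0.186). Nrp2 was called nowhere, with group means of 395 to 694 CPM.

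Ephrins, the ligands of Eph receptors, were lower in bladder where they differed: 2 of 8 at E14.5 and 4 at E18.5, with none higher. Lower calls made up 12.5% and 16.2% of all genes tested at these stages, and higher calls 12.4% and 18.52%. With stage, 5 of 8 fell in bladder and 5 in urethra, and 1, Efnb2, rose in bladder. Of all genes 22% fell in bladder and 10.8% in urethra, and 23.7% rose in bladder. Efnb2, a transmembrane ligand that marks arterial endothelium among other cells, was the highest ephrin per kb over the 12 libraries. It led in every group but E14.5 bladder, where Efnb1 was at 43.8 and Efnb2 at 14.4 CPM per kb.

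Efnb2 (chromosome 8, 8617434 to 8661242) was at 136, 79.6 and 80.1 CPM in E14.5 bladder and 478, 336 and 467 CPM in E14.5 urethra. By E18.5 it was at 279, 158 and 237 CPM in bladder and 345, 262 and 325 CPM in urethra. The compartments were far apart at E14.5 and overlapped at E18.5. The difference was -2.11 ± 0.26 at E14.5 (adjusted p = 0.000263) and was not called at E18.5. Its change was 1.65 ± 0.35 (adjusted p = 0.0146), which kept its call in every alternative run, and the gene rose in bladder by 1.19. The 10 endothelial markers summed to 486 to 853 CPM in E14.5 bladder, 382 to 569 in E14.5 urethra, 384 to 502 in E18.5 bladder and 629 to 717 in E18.5 urethra. Their part in the result was not tested.

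Of the other ephrins, Efna1 was called in no comparison, and each of the remaining 6 fell in at least 1 compartment. In bladder Efna2 fell by 1.37, Efna3 by 1.37, Efna4 by 1.52, Efnb1 by 0.70 and Efnb3 by 1.57 on the log2 scale. In urethra Efna2 fell by 0.80, Efna4 by 0.92, Efna5 by 0.95, Efnb1 by 0.76 and Efnb3 by 0.93. Efna4, a GPI-anchored ligand, was lower in bladder at both stages, with differences of -0.63 ± 0.13 and -1.23 ± 0.13, at 10.2 ± 1.07 CPM in E18.5 bladder and 23.9 ± 2.98 CPM in E18.5 urethra (SD, n = 3). In the annotation 10.5% of Efna4 exon bases and 14.1% of those of Efna3 lie opposite exons of another gene, and whether counting used strand is not given in the sources used here. The call that Efna2 fell in urethra ended without replicate 3 of E14.5 or of E18.5 (adjusted p 0.056 and 0.0514).

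**Figure D3:**
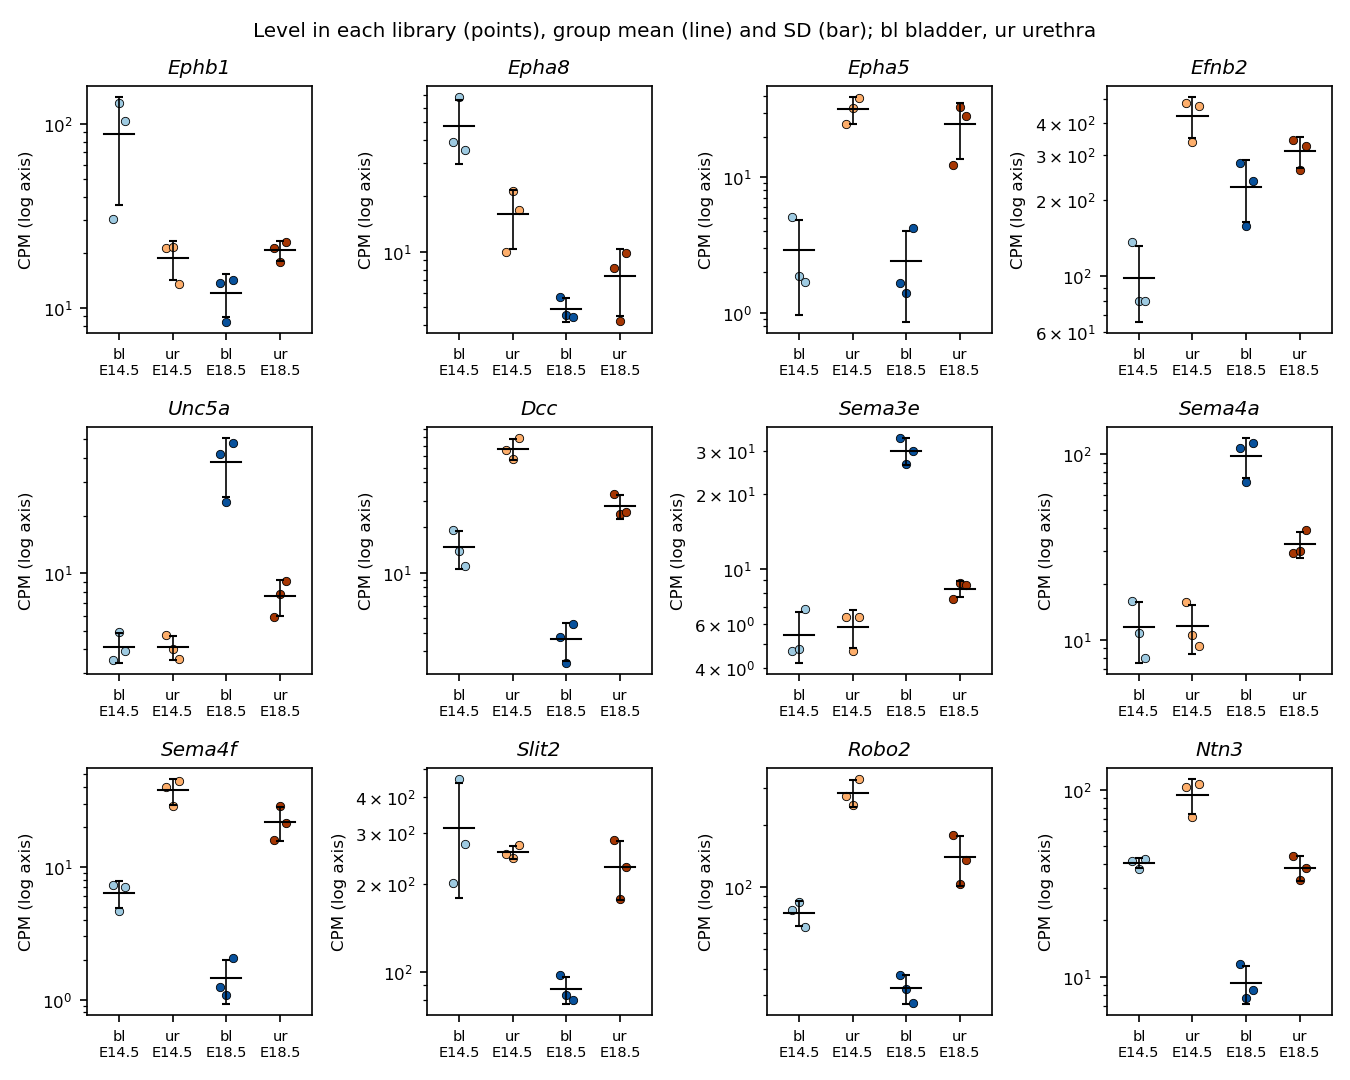
Level in CPM (log axis) of 12 guidance genes in each library; points are libraries, the line is the mean of the 3 libraries of a group and the bar its SD. Ephb1 and Epha8 are highest in E14.5 bladder, Sema3e, Unc5a and Sema4a in E18.5 bladder, and Epha5, Dcc, Sema4f, Robo2 and Ntn3 are lower in bladder at both stages.

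Eph receptors, tyrosine kinases that bind ephrins on neighbouring cells, are the largest role and held the most lower calls. These were 8 of 14 at E14.5 and 10 at E18.5, with 2 higher at each stage. Over all genes tested, 12.5% and 16.2% were called lower, and 12.4% and 18.52% higher. As a share of the role, lower calls were more frequent among Robo receptors at E14.5 (2 of 3 tested) and netrins at E18.5 (3 of 4). Epha3, Epha4, Epha5, Epha6, Epha7, Ephb2, Ephb3 and Ephb6 were lower in bladder at both stages. The E18.5 call of Ephb6 ended without bladder replicate 2 (adjusted p = 0.0656), urethral replicate 1 (0.0641) or urethral replicate 3 (0.0681). Epha4 had group means of 77 ± 12.3 CPM in E14.5 bladder and 253 ± 65.8 in E14.5 urethra, and 33.5 ± 9.56 and 121 ± 26.6 CPM at E18.5 (SD, n = 3). Its differences were -1.71 ± 0.24 and -1.86 ± 0.24. Epha7 differed by -1.73 ± 0.19 and -1.23 ± 0.19, Ephb2 by -1.34 ± 0.18 and -1.37 ± 0.18, and Epha3 by -1.57 ± 0.32 and -1.22 ± 0.32. Epha4 and Epha7 fell with stage in both compartments, and the bladder call of Epha7 ended without E14.5 replicate 2 (0.0665) or E18.5 replicate 3 (0.055).

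Epha5 (chromosome 5, 84054761 to 84417382) gave the largest E14.5 difference. It was at 5.12, 1.86 and 1.69 CPM in E14.5 bladder and 24.7, 32.6 and 38.7 CPM in E14.5 urethra, and at 1.64, 1.39 and 4.22 CPM in E18.5 bladder and 12.4, 33.1 and 28.1 CPM in E18.5 urethra. All bladder libraries were below all urethral ones. The difference was -3.47 ± 0.55 (adjusted p = 0.00148) and -3.31 ± 0.55 (adjusted p = 0.000778). In each bladder group 1 library was more than 2-fold above the other 2: without it the difference was -4.18 at E14.5 (replicate 1) and -4.0 at E18.5 (replicate 3). The same libraries had the highest neuronal marker sums of their groups, 486 and 190.3 CPM. They also had the highest sums of epithelial (1501 and 11379 CPM), glial (82.7 and 191 CPM) and mesothelial markers (479 and 1188 CPM). Of the 12 neuronal markers 11 were lower in bladder at E14.5 and 12 at E18.5, and their part in the lower Eph receptor levels was not tested. Epha6 was low, with 2 counts in all in E18.5 bladder and 132 in E18.5 urethra, a ratio per total of 64.0 whose exact 95% binomial interval, which covers counting error only, was 17.4 to 534. Both bladder counts were in replicate 2. The fitted log2 difference of Epha6, -5.46, was -8.32 without that library and -4.79 without bladder replicate 3. Its E14.5 call ended without bladder replicate 2 or 3 or urethral replicate 1 or 3 (adjusted p 0.07 to 0.104). Epha10, a receptor without kinase activity, had 7 counts in all in E18.5 bladder and 164 in E18.5 urethra, where it was called lower in bladder.

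Ephb1 (chromosome 9, 101922128 to 102354693) and Epha8 (chromosome 4, 136929419 to 136956816) had the opposite pattern at E14.5. Ephb1 was at 30.4, 129.7 and 104 CPM in E14.5 bladder and 21.2, 21.5 and 13.5 CPM in E14.5 urethra. At E18.5 it was at 13.7, 8.42 and 14.2 CPM in bladder and 21.2, 17.7 and 22.7 CPM in urethra. Every bladder library was above every urethral library at E14.5 and below at E18.5, with bladder replicate 1 the lowest of its E14.5 group. The E14.5 difference was 2.23 ± 0.44 (adjusted p = 0.00476), the E18.5 difference was not called, and the change was -2.99 ± 0.61 (adjusted p = 0.0135). The gene fell in bladder by 2.85 ± 0.45 on the log2 scale (adjusted p = 0.000461) and was not called with stage in urethra.

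Epha8 was at 38.9, 68.2 and 35.5 CPM in E14.5 bladder and 9.98, 21.2 and 16.8 CPM in E14.5 urethra. Its E18.5 libraries were at 5.72, 4.56 and 4.42 CPM in bladder and 8.12, 4.22 and 9.88 CPM in urethra, where the compartments overlapped. The E14.5 difference was 1.57 ± 0.35 (adjusted p = 0.00755) and the change -2.17 ± 0.50 (adjusted p = 0.02), a call that ended without replicate 3 of E18.5 bladder (0.0507) or of E18.5 urethra (0.0528). It fell in bladder by 3.28 ± 0.38 on the log2 scale (adjusted p = 4.71e-05), the largest fall with stage among members with at least 5 CPM. In urethra it fell by 1.11 (adjusted p = 0.0381), and that call ended without urethral E14.5 replicate 2 or 3 or E18.5 replicate 1 or 2 (0.0754 to 0.126). The urethral call also ended with limma-voom (0.0527), no low-count filter (0.0864) and only the libraries compared (0.0676).

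Epha1 (chromosome 6, 42358487 to 42373268), a receptor found in epithelia, rose in both compartments. It was at 33.8, 14.6 and 16.8 CPM in E14.5 bladder and 20.6, 13.8 and 17.5 in E14.5 urethra, and at 115, 80.7 and 119.9 CPM in E18.5 bladder and 37, 42.2 and 40.5 in E18.5 urethra. The E14.5 compartments overlapped and the E18.5 ones did not. It rose by 2.28 ± 0.29 in bladder (adjusted p = 8.11e-05) and 1.21 ± 0.28 in urethra (adjusted p = 0.0094), and the E18.5 difference was 1.40 ± 0.28 (adjusted p = 0.00194). Epha2, another epithelial Eph receptor, rose by 1.38 in bladder and 1.08 in urethra. Its E18.5 compartment difference, 0.74 ± 0.25 (adjusted p = 0.0383), came from overlapping groups and ended with the replicate block (0.114) and without replicate 1 or 3 of either compartment (0.0919 to 0.184). That call also ended in a fit of only the libraries compared (0.0969). All 14 epithelial markers rose with stage in bladder, 8 in urethra, and 5 were higher in bladder at E18.5. Their part in the Epha1 and Epha2 values was not tested.

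Ephb4 (chromosome 5, 137350109 to 137378669), the receptor of Efnb2 that marks venous endothelium, was the highest Eph receptor per kb over the 12 libraries. It was at 195, 243 and 228 CPM in E14.5 bladder, 272, 194 and 266 in E14.5 urethra, 135, 121 and 102 in E18.5 bladder and 225, 191 and 186 in E18.5 urethra. E18.5 bladder lay below the other 3 groups. The gene fell in bladder by 0.90 on the log2 scale and was lower in bladder at E18.5, with a difference of -0.75 ± 0.16 (adjusted p = 0.0024). In E18.5 bladder Epha1 was at 26.8 and Ephb4 at 25.7 CPM per kb, while in the other groups Ephb4 led the role.

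**Figure D4:**
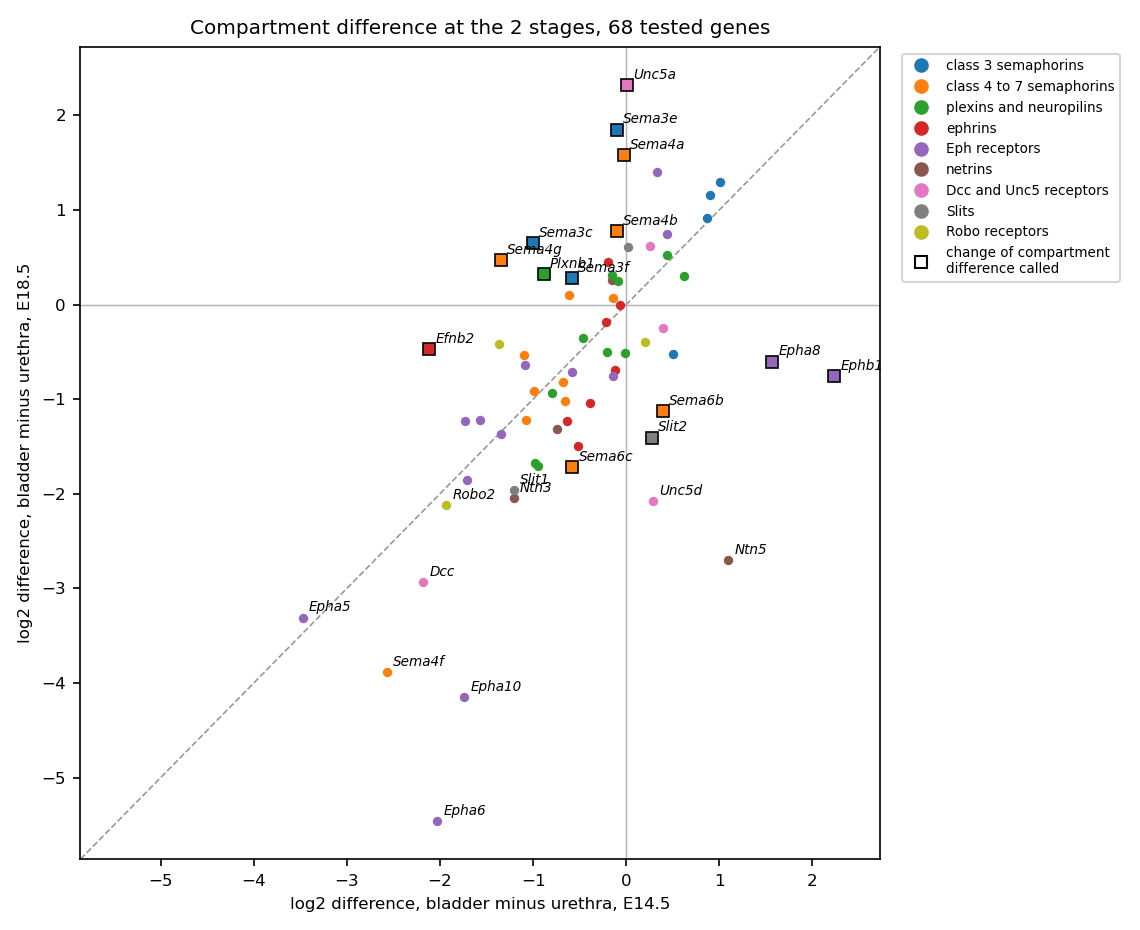
Log2 difference between bladder and urethral mesenchyme at E14.5 (horizontal) and E18.5 (vertical) for the 68 tested guidance genes; the dashed line marks equal differences, and squares mark genes whose difference changed between stages by edgeR's quasi-likelihood test. Epha5, Sema4f, Dcc and Robo2 lie at the lower left, Ephb1 and Epha8 to the right of the line, and Unc5a and Sema3e above it.

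Netrins are secreted ligands. Of 4 netrins, 1 was lower in bladder at E14.5 and 3 at E18.5, where 12.5% and 16.2% of all genes tested were. Ntn3 (chromosome 17, 24203848 to 24209531) was the highest netrin per kb over the 12 libraries, although Ntn1, the best-known netrin, led at E18.5. Ntn3 was at 41.5, 37.8 and 42.9 CPM in E14.5 bladder and 104, 71.1 and 107 in E14.5 urethra. At E18.5 it was at 11.7, 7.72 and 8.45 CPM in bladder and 44.2, 32.8 and 38.2 in urethra. The groups did not overlap in any of the 4 comparisons within a stage or compartment. The compartment difference was -1.21 ± 0.19 (adjusted p = 0.000923) and -2.04 ± 0.20 (adjusted p = 1.33e-05). The gene fell by 2.13 ± 0.20 in bladder (adjusted p = 1.17e-05) and 1.29 ± 0.19 in urethra (adjusted p = 0.000783) on the log2 scale. Ntn1, at 28.5 ± 4.93 CPM in E18.5 bladder and 70.7 ± 5.79 in E18.5 urethra (SD, n = 3), differed by -1.31 ± 0.47 (adjusted p = 0.0495), a call that ended without any 1 of the 6 E18.5 libraries (0.0922 to 0.151). The Ntn1 call also ended with no low-count filter (0.138). Ntn4 rose in bladder by 1.54, a call that ended without bladder E14.5 replicate 3 (0.0544) and in a fit of only the libraries compared (0.0507). Without bladder E14.5 replicate 1 the Ntn4 difference was 2.34. Ntn5 was called lower in E18.5 bladder and higher with stage in urethra from group sums of at most 53 counts. The E18.5 call ended without any 1 of the 6 E18.5 libraries (0.0558 to 0.112), and the urethral one without E14.5 replicate 2 or 3 or E18.5 replicate 3 (0.0597 to 0.0841). With DESeq2 (0.0511) and with no low-count filter (0.0582) the E18.5 call ended too. In the annotation 23.4% of Ntn5 exon bases lie opposite exons of another gene, so the values of Ntn5 are uncertain.

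Dcc (chromosome 18, 71253634 to 72351069), the netrin receptor of attraction, was lower in bladder at both stages and fell in both compartments. It was at 19.3, 13.9 and 11.1 CPM in E14.5 bladder and 65.4, 56.6 and 78.3 in E14.5 urethra, and at 3.74, 2.52 and 4.54 CPM in E18.5 bladder and 33.6, 24.4 and 25.3 in E18.5 urethra. No groups overlapped. The difference was -2.18 ± 0.24 at E14.5 (adjusted p = 0.000141) and -2.93 ± 0.26 at E18.5 (adjusted p = 7.58e-06). Dcc fell by 2.02 ± 0.25 in bladder (adjusted p = 6.82e-05) and 1.26 ± 0.23 in urethra (adjusted p = 0.00284) on the log2 scale. It is also expressed by neurons, and the neuronal marker sums given above were lower in bladder at both stages. With stage, 3 of the 12 neuronal markers fell and none rose in bladder, and 1 rose and none fell in urethra. Their part in the Dcc values was not tested.

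Unc5a (chromosome 13, 54949411 to 55006018), a netrin receptor of repulsion, gave the largest higher call at E18.5. It was at 3.52, 4.93 and 3.94 CPM in E14.5 bladder and 4.77, 4 and 3.56 in E14.5 urethra, and at 42.2, 23.6 and 48.1 CPM in E18.5 bladder and 5.89, 7.83 and 9.09 in E18.5 urethra. As with Sema3e, the E18.5 bladder libraries were the highest. Unc5a rose by 3.20 ± 0.28 in bladder (adjusted p = 1.02e-05), and the E18.5 difference was 2.32 ± 0.27 (adjusted p = 4.99e-05). The change of the difference was 2.31 ± 0.38 (adjusted p = 0.00415) and kept its call in every alternative run. The rise in urethra, 0.89 (adjusted p = 0.0308), ended without replicate 2 or 3 of E14.5 or of E18.5 (0.0687 to 0.122) and with limma-voom (0.104). Mesenchymal, epithelial, smooth muscle, skeletal muscle and mesothelial marker sums were also highest in E18.5 bladder. The mesothelial sum was 934 to 1188 CPM there against 92.2 to 149 in E18.5 urethra. The part of these cell types in the Unc5a and Sema3e values was not tested.

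Unc5b (chromosome 10, 60762593 to 60831581), a receptor that is also expressed in endothelium, was the highest of its role per kb. It was at 123, 171 and 141 CPM in E14.5 bladder, 105, 123 and 135 in E14.5 urethra, 158, 127 and 106 in E18.5 bladder and 92.7, 79.6 and 82.1 in E18.5 urethra. The compartments overlapped at E14.5 and were separate at E18.5, where the difference was 0.62 ± 0.16 (adjusted p = 0.0104). Unc5c (chromosome 3, 141465216 to 141834924) fell in both compartments. It was at 132, 246 and 189.7 CPM in E14.5 bladder and 108, 144 and 179.6 in E14.5 urethra, and at 55.9, 45.1 and 43 CPM in E18.5 bladder and 63, 48.4 and 59.5 in E18.5 urethra. Every E18.5 library lay below every E14.5 library. Unc5c fell by 1.98 ± 0.24 in bladder (adjusted p = 5.42e-05) and 1.34 ± 0.23 in urethra (adjusted p = 0.0021) on the log2 scale. Its compartment difference was not called at either stage. Unc5d was called lower with stage in bladder, from 126 counts in all at E14.5 to 7 at E18.5, which were all in replicate 2.

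**Figure D5:**
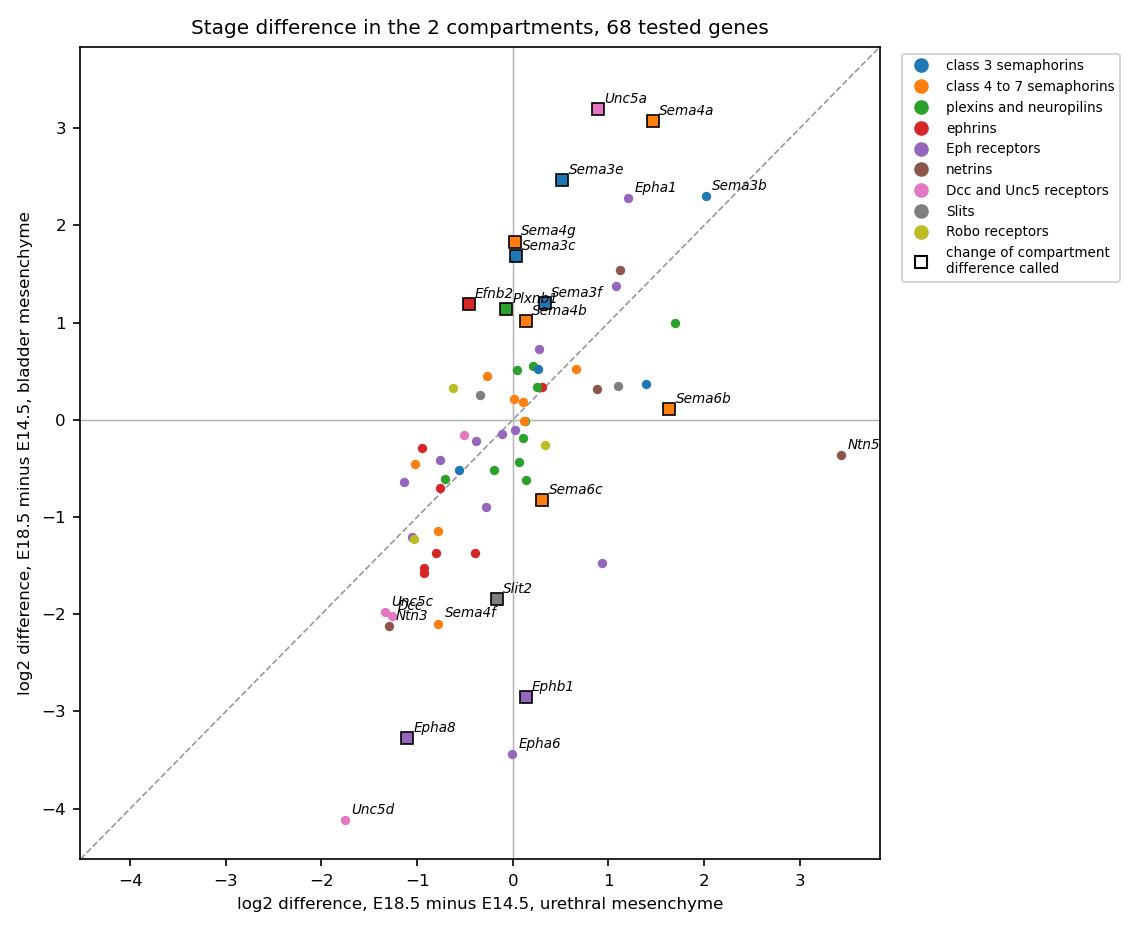
Log2 difference between E18.5 and E14.5 in urethral (horizontal) and bladder mesenchyme (vertical) for the 68 tested guidance genes; the dashed line marks equal differences, and squares mark genes whose compartment difference changed between stages. Sema3b lies near the line at the upper right and Ntn3, Dcc and Unc5c at the lower left, while Unc5a, Sema3e and Sema4a lie above the line and Epha8, Ephb1 and Slit2 below it.

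Slits and Robo receptors, a repulsive pair that also limits ureteric bud outgrowth in the kidney, differed mainly in the receptors at E14.5: none of 3 Slits was called, and 2 of 3 tested Robo genes were lower in bladder. At E18.5, 2 Slits and 1 Robo were lower in bladder and 1 Slit was higher. For all genes tested the lower calls were 12.5% at E14.5 and 16.2% at E18.5, and the higher calls 12.4% and 18.52%. Slit3 was the highest Slit per kb in every group, and Slit2 came after it. That order rests on exon lengths of 6067 bases for Slit3 and 25433 for Slit2. In CPM, Slit2 was the higher of these in every group but E18.5 bladder. Slit2 (chromosome 5, 47983138 to 48307733) was at 202, 461 and 275 CPM in E14.5 bladder and 254, 247 and 273 in E14.5 urethra, and at 97.5, 82.9 and 80.1 CPM in E18.5 bladder and 284, 178 and 229 in E18.5 urethra. Only E18.5 bladder was apart from the other 3 groups, and it was lower. Slit2 fell in bladder by 1.85 ± 0.26 on the log2 scale (adjusted p = 0.000159), differed by -1.41 ± 0.26 at E18.5 (adjusted p = 0.00113) and had a change of -1.68 ± 0.36 (adjusted p = 0.014). All 3 calls were kept in every alternative run.

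Slit3 (chromosome 11, 35121224 to 35708507) was at 153, 129.8 and 147 CPM in E14.5 bladder, 122, 135 and 168 in E14.5 urethra, 189, 178 and 144 in E18.5 bladder and 106, 126 and 104 in E18.5 urethra. It was thus higher in bladder at E18.5, by 0.61 ± 0.14 (adjusted p = 0.00566), where Slit2 was lower. Slit1 was under 3 CPM in every group mean and was lower in bladder at E18.5, with a difference of -1.96 ± 0.61 (adjusted p = 0.0253), a call that ended without any 1 of the E18.5 libraries except bladder replicate 2 (0.0549 to 0.1).

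Robo2 (chromosome 16, 73891839 to 74411825) was the highest Robo per kb over the 12 libraries. It was at 76.9, 84.1 and 64 CPM in E14.5 bladder and 275, 249.9 and 333 in E14.5 urethra, and at 37.3, 31.8 and 27.2 CPM in E18.5 bladder and 179, 104 and 135 in E18.5 urethra. No groups overlapped between compartments or stages. The difference was -1.93 ± 0.20 at E14.5 (adjusted p = 9.15e-05) and -2.12 ± 0.20 at E18.5 (adjusted p = 1.32e-05), and Robo2 fell by 1.22 in bladder and 1.04 ± 0.19 in urethra on the log2 scale. Robo1 was lower in bladder at E14.5, with a difference of -1.37 ± 0.21 (adjusted p = 0.000983) and was not called at E18.5. Robo4, an endothelial member, was called in no comparison, with group means of 24.1 to 31.8 CPM. It was the highest Robo per kb in bladder at both stages, over 5302 exon bases against 16511 for Robo1 and 16983 for Robo2. In CPM, Robo1 and Robo2 were each above Robo4 in every library.

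Other genes of the guidance pathways, in lists that do not overlap the members, also had more lower than higher calls in bladder. These lists were chosen with earlier results of these data known, so they are not independent support for the member counts. Of 17 further cues and adhesion receptors tested, 9 were lower and none higher in bladder at E14.5, and 11 lower and 1 higher at E18.5, beside the shares of all genes given above (12.5% lower and 12.4% higher at E14.5, 16.2% and 18.52% at E18.5). The differences were largest for L1cam, an axonal adhesion molecule (-2.15 ± 0.47 at E14.5, adjusted p = 0.00849), and for Islr2 and Nrcam at E18.5 (-3.91 ± 0.51 and -3.02 ± 0.32). Of 34 intracellular effectors tested, 13 were lower and 4 higher at E14.5, and 13 lower and 6 higher at E18.5. Crmp1, a collapsin response mediator that relays Sema3a signals, differed by -1.96 ± 0.41 at E14.5 and -3.39 ± 0.44 at E18.5, and Dpysl4, of the same family, by -2.83 ± 0.12 at E18.5 (adjusted p = 1.29e-07). With stage in bladder 1 cue rose and 6 fell, and 10 effectors rose and 5 fell, where 23.7% of all genes rose and 22% fell. In urethra 3 cues rose and 2 fell, and 7 effectors rose and 3 fell, where 13.6% and 10.8% of all genes did. Several of these genes are expressed mainly by neurons, whose marker sums were also lower in bladder, and the part of those cells in the counts was not tested.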

How the data were processed

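Each stage has 1 table, in which the authors deposited unnormalized read counts by gene. Per the labels, the directional libraries were made from poly(A) RNA. Reads were handled with HISAT2 2.2.1, SAMtools 1.9 and bcl2fastq on GRCm38, per the submitters' processing notes. What counted the reads, with which strand setting and gene models, is not given in the sources used here. All sample columns matched a label.

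Counts were filtered by edgeR 4.0.16 filterByExpr (minimum count 10), scaled by TMM and tested in R 4.3.3 with robust quasi-likelihood F tests in 1 model of 4 group means (12 libraries, 8 residual degrees of freedom), with Benjamini-Hochberg adjustment within each comparison over the 18805 genes tested. CPM per kb used the deposited lengths, summed over the exons of a gene, and ranks per kb depend on them. Totals of 21495169 to 36349777 counts set the worth of 3 counts at 0.0825 to 0.1396 CPM. In the libraries, genes with 2 counts outnumbered genes with 1 count 2.06 to 2.51 times, as happens if each pair adds 2, which would make counting intervals too narrow.

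The members and lists were chosen with earlier results of these data known. Values in each library are given for the 4 members with the largest called fold per direction in each compartment comparison (3 in the other comparisons) with at least 5 CPM in the highest group, and for the highest member per kb of each role. Promoters came from RefSeq (GRCm38.p6), matched by symbol for 59 of 69 members.

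Alternatives were DESeq2 1.42.0, limma-voom (limma 3.58.1), median-ratio size factors, no or a stricter low-count filter, only the libraries compared, leaving out each library, leaving out both E14.5 libraries numbered 1, and replicate number within stage as a block. Litters gave both tissues. Deviations of same-numbered libraries from their group means correlated at 0.197, 0.193 and 0.286 at E18.5 and at 0.191, -0.028 and 0.206 at E14.5. Those of differently numbered libraries correlated at -0.136 to -0.0852 at E18.5 and at -0.265 to 0.133 at E14.5. The numbers were taken to pair the samples at E18.5 and not at E14.5, while the block was fitted at both stages. The main fit, which gave the SE and adjusted p values above, did not use the pairing. Scripts were tested on simulated data with known changes. For the E14.5 compartment difference, 44.8% of 2-fold and 81.8% of 4-fold changes were called. For the change of the difference, 17.2% and 57.1% were called. False calls were 3.88% and 6.41% of all calls in these 2 tests. In the first test only 96 genes had a 2-fold and 99 a 4-fold change among 18384. In the real E14.5 comparison 4677 of 18805 genes were called. The adjustment is stricter where fewer genes change, so these rates do not give the share recovered in the real comparisons. A gene that was not called may still differ.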

Additional observations from a re-analysis of the deposited data

Results flagged for a closer look

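For 14 guidance genes the difference between bladder and urethral mesenchyme itself changed from E14.5 to E18.5, by edgeR's quasi-likelihood test of that change with Benjamini-Hochberg adjustment over all genes tested. The difference moved towards urethra for Ephb1 by -2.99 ± 0.61 (log2, ± SE, adjusted p = 0.0135), Epha8 by -2.17 ± 0.50, Slit2 by -1.68 ± 0.36, Sema6b by -1.52 ± 0.40 and Sema6c by -1.14 ± 0.19. It moved towards bladder for Unc5a by 2.31 ± 0.38 (adjusted p = 0.00415), Sema3e by 1.95 ± 0.29, Sema4g by 1.82 ± 0.48, Sema3c by 1.65 ± 0.33, Efnb2 by 1.65 ± 0.35, Sema4a by 1.60 ± 0.39, Plxnb1 by 1.21 ± 0.28, Sema4b by 0.87 ± 0.21 and Sema3f by 0.86 ± 0.23. Of these 14 calls, 7 were kept in every alternative run: Ephb1, Slit2, Sema6c, Unc5a, Sema3e, Sema3c and Efnb2. The change of Sema3f ended in 9 of the 12 fits without 1 library (adjusted p 0.0516 to 0.0893), all but those without replicate 1 of E14.5 bladder, replicate 3 of E14.5 urethra or replicate 2 of E18.5 bladder. That of Sema4b ended without replicate 3 of E14.5 bladder, E14.5 urethra or E18.5 bladder, or replicate 1 or 2 of E18.5 urethra (0.0532 to 0.0646).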

How the results depend on the processing

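Of 152 calls of a member in a comparison, 115 were kept in every alternative run and 37 ended in at least 1; none changed direction. The calls kept were 24 of 31 for the compartments at E14.5, 37 of 45 at E18.5, 7 of 14 for the change of the difference, 31 of 36 for stage in bladder and 16 of 26 for stage in urethra. Among the counts of members called, the change towards urethra moved from 5 to 10 with DESeq2 and to 8 with the replicate block; the share of changes towards bladder was 64.3% with edgeR and 50% with DESeq2. With 1 library left out, changes towards bladder ranged from 4 to 10 (4 without replicate 3 of E14.5 bladder or replicate 2 of E18.5 urethra, 5 without replicate 3 of E18.5 bladder or replicate 1 of E18.5 urethra). Changes towards urethra ranged from 3 (without replicate 3 of E18.5 urethra) to 7. Genes that rose in urethra ranged from 6 (without replicate 3 of E18.5 urethra) to 11, and genes that fell there from 10 (without replicate 3 of E14.5 urethra) to 15. The replicate block gave 7 higher and 27 lower members at E14.5 and 12 and 34 at E18.5, and ended the calls of Epha2 at E18.5, of Sema4d at E14.5 and of the change of Sema6b. No paired fit was made for the stage comparisons, whose litters differ. Without both E14.5 libraries numbered 1, 9 members were higher and 28 lower in bladder at E14.5. Low counts limit Robo3, Epha6, Epha10, Ntn5 and Unc5d.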
